A study of Mus musculus with 15 samples.

Results

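The Hox genes are the 39 homeobox genes of the 4 mouse Hox clusters, HoxA (11 genes), HoxB (10), HoxC (9) and HoxD (9). They were taken as every array element whose RefSeq transcript belongs to a gene named Hoxa, Hoxb, Hoxc or Hoxd with a number only, which gave 46 of the 56605 distinct probes of the array and 39 of 23462 named genes. A single probe measured 32 of the genes and a pair of probes measured 7. Their transcripts were measured in mouse embryonic fibroblasts (MEFs, the established Balb/c 3T3 line, clone A31, a single clone and so a single genetic background). Total RNA of each culture was hybridised to a one-color 60-mer oligonucleotide array, with 15 arrays in 5 groups of 3. All groups were the same line in DMEM with fetal calf serum, and the labels name no altered allele or transgene in any group. Control MEFs received no cytokine. The treated groups received TNFα at 10 ng/ml, TGFß1 at 5 ng/ml, IL-1β at 1 ng/ml, or IL-6 at 20 ng/ml together with sIL-6Rα, its soluble receptor, at 25 ng/ml (called IL-6 here). Exposure lasted 24 h for the control, TNFα and TGFß1 arrays. The labels allow 24 or 72 h for every group, so the exposure of the IL-1β and IL-6 arrays is not settled. The cytokine groups were compared with control to ask how a proinflammatory or a profibrotic stimulus changes these cells, and an array is named by its group and the number that opens its label.

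Hox genes encode transcription factors that bind DNA through a homeodomain and set the identity of segments along the head-to-tail and limb axes of the embryo. Each cluster is a row of genes numbered by paralog group, and genes at the low-number end are used in anterior regions while genes at the high-number end are used in posterior and distal ones, an order known as collinearity. Fibroblasts keep a Hox pattern of their site of origin through many divisions in culture. The pattern is held by Polycomb proteins, which repress the genes, and by Trithorax proteins, which keep them active, and Hox proteins bind DNA together with cofactors of the Pbx and Meis families.

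Promoters are shown for a gene that was lower with both TNFα and TGFß1 (Hoxc4), a gene that was higher with TGFß1 (Hoxb4) and the gene that was higher with TNFα (Hoxa7). The sequences are RefSeq's for GRCm38.p6, 250 bases before to 50 bases after the annotated start, 5′ to 3′ on the strand of the gene, and RefSeq promoters were at hand for 22 of the 39 Hox genes, of which 1 was a HoxC gene. Capitals mark CAGAC, the box bound by Smad proteins downstream of the TGFß receptors, on either strand. The Hoxc4 window lies at chr15:103034145-103034444 on the plus strand, the Hoxb4 window at chr11:96318017-96318316 on the plus strand and the Hoxa7 window at chr6:52218524-52218823 on the minus strand.
Hoxc4: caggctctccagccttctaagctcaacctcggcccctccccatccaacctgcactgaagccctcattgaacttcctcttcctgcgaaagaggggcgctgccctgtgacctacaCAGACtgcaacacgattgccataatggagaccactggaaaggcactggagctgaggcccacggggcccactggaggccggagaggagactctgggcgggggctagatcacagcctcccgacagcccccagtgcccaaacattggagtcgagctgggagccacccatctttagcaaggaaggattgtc
Hoxb4: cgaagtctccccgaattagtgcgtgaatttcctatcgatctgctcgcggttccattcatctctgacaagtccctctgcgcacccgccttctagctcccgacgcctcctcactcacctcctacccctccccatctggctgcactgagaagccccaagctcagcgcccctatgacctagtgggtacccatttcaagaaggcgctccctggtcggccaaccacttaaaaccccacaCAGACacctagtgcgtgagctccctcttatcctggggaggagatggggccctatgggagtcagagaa
Hoxa7: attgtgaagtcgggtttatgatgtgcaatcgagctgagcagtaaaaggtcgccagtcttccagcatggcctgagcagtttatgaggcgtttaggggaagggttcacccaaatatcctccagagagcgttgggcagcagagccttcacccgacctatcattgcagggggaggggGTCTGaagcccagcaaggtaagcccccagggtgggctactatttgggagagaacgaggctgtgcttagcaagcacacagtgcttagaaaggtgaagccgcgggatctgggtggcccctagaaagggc
Each window held 1 match to CAGAC, which began 137 bases before the start of Hoxc4, 17 bases before that of Hoxb4 and 77 bases before that of Hoxa7. A match to these 5 letters stood in 49.6% of all 32851 promoter windows of the same length and in 9 of the 22 Hox genes. None of the 3 windows held TATAAA (13.6% of all windows), TGATNNAT, the joint site of Hox and Pbx proteins (8.8%), or the NF-κB motif used downstream of the TNFα receptors (8.5%), searched on both strands. The 3 windows were rich in G and C (60.3% for Hoxc4, 58.0% for Hoxb4 and 55.7% for Hoxa7, against a median of 52.7% over all windows).

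Levels are log2 processed signals relative to the 75th percentile of each array, so that 0 is the 75th percentile and levels of different genes are not set against each other. On each array 48.3% to 54.9% of all probes were well above background by the mark of the scanner software. Both ends of this range were control arrays, control 11 at the low end and control 6 at the high end. All 10 fibroblast markers were detected on the 15 arrays. No array detected any of 3 skeletal muscle markers, Ptprc and Adgre1 of leukocytes, or Cdh5, Kdr and Tek of endothelium, while Cd68, Csf1r and Itgam of myeloid cells and Pecam1 of endothelium were detected on all 15. Each of 3 neural markers was detected on at least 1 array, and none of them on all 15. The arrays lay on 2 slides, read from the file headers, with control 1 and 11, TNFα 14, TGFß1 7, IL-1β 5 and 10 and IL-6 3 and 8 on slide 1 and the other arrays on slide 2. Every group stood on both slides, so each result could be refitted with the slide as a term. The study gives the control, TNFα and TGFß1 arrays as independent experiments, while nothing says this of the IL-1β and IL-6 arrays, whose spread may be technical only. All 15 arrays share 1 estimate of the spread, so this bears on the p-values of every comparison, those of TNFα and TGFß1 included.

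The MEFs held transcripts of most of the Hox system, from anterior to posterior paralogs. In all 5 groups 32 of the 39 genes were well above background on every array. These were all 9 HoxC genes, from Hoxc4 to Hoxc13, 10 of 11 HoxA genes, 9 of 10 HoxB genes, and 4 of 9 HoxD genes (Hoxd3, Hoxd4, Hoxd8 and Hoxd9). The genes detected on none of the 15 arrays were Hoxa13, Hoxb1, Hoxd1, Hoxd11, Hoxd12 and Hoxd13. Thus the most posterior paralog group, which patterns the distal limb, the genital tubercle and the tail, was detected through Hoxb13 and Hoxc13, while Hoxa13 and Hoxd13 were not well above background. Hoxd10 was detected on 4 arrays (control 1, TNFα 4, TNFα 14 and IL-1β 5), which was not every array of any group, and it was not tested. A cytokine-treated group gained or lost no Hox gene, since the same 32 genes were detected on every array of each group.

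**Figure D1:**
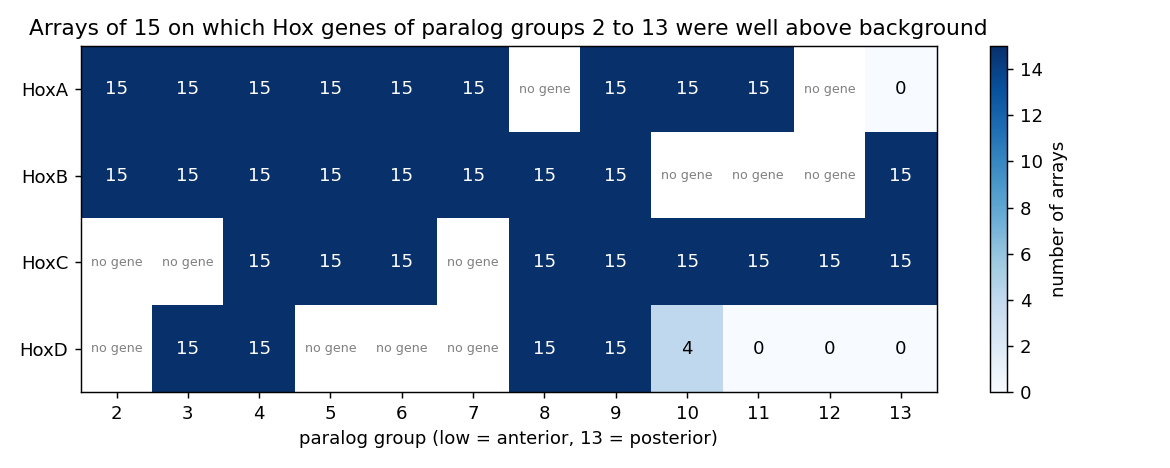
Number of the 15 arrays on which each Hox gene was well above background, by cluster (rows) and paralog group from 2 to 13 (columns), taking the probe of a gene detected on the most arrays. The 31 genes marked 15 were tested, Hoxd10 was detected on 4 arrays, and Hoxa13, Hoxd11, Hoxd12 and Hoxd13 were detected on none.

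A gene was called where its brightest probe differed at a q-value below 0.05, adjusted over all 29334 probes tested, and reached a fold-change of 1.5 or more in either direction. Among the 32 genes tested, 7 were called in TNFα-treated MEFs (1 higher, 6 lower) and 12 in TGFß1-treated MEFs (5 higher, 7 lower). The share of all probes that was called came to 10.2% for TNFα, made up of 4.12% that rose and 6.06% that fell. For TGFß1 it came to 18.0%, of which 7.17% rose and 10.8% fell. Under median centring of the arrays the probes that rose were 29.6% of the TNFα calls in place of 40.5%, and the Hox genes called with TNFα were 0 higher and 8 lower. The median log2(FC) of the 32 genes was -0.24 with TNFα and -0.01 with TGFß1, where that of all probes was 0.04 and 0.05. The calls were unequally placed over the clusters. In HoxC, 5 of 9 genes were called lower with TNFα and 7 of 9 with TGFß1, and none was higher. In HoxA, 1 of 10 was higher with TNFα and 2 with TGFß1, and none was lower. In HoxB, 1 of 9 was lower with TNFα and 3 were higher with TGFß1, and in HoxD none of 4 was called with either. Of the 14 genes called with at least 1 of the cytokines, 5 were called with both, all of them HoxC genes that fell, and none was called in opposite directions. The 2 comparisons share the control arrays, so the shared calls are not independent of each other.

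**Figure D2:**
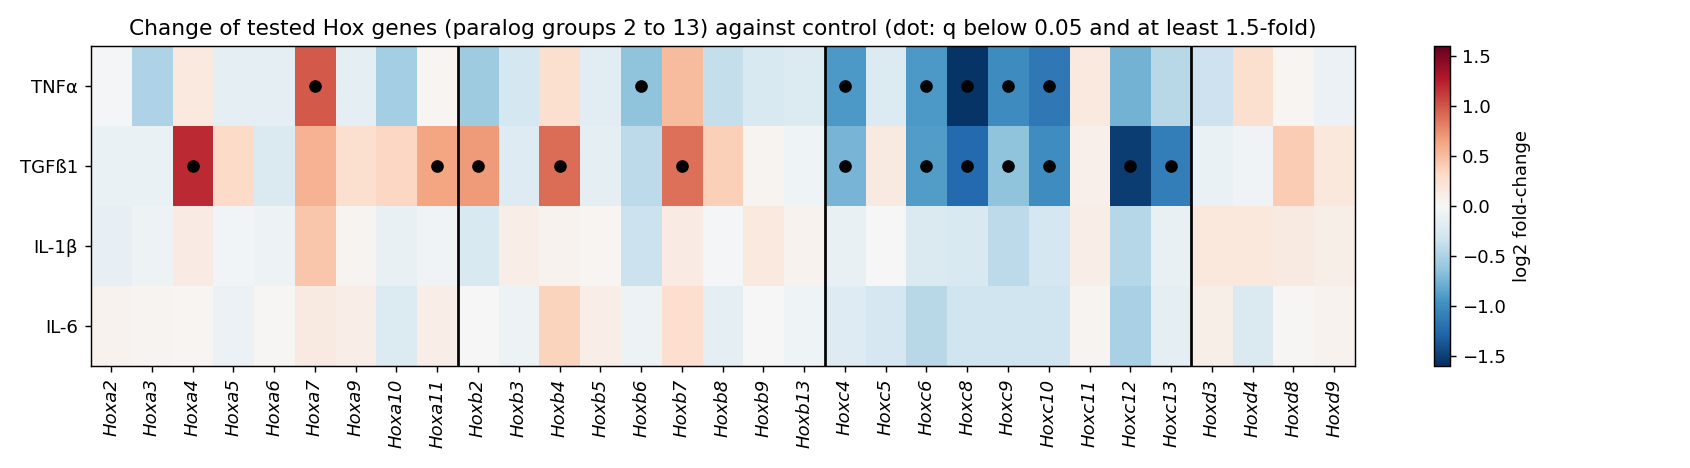
Log2 fold-change of 31 tested Hox genes (columns, by cluster and paralog group) in MEFs treated by each cytokine against control MEFs (rows), with n = 3 arrays a group; a dot marks a call. Blue (lower) runs through HoxC except at Hoxc11 for TNFα and at Hoxc5 and Hoxc11 for TGFß1, and the rows of IL-1β and IL-6 hold no dot.

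Hoxc8, Hoxc9 and Hoxc10, the genes in the middle of the cluster, fell with both cytokines. Hoxc8, which patterns the thoracic vertebrae and the motor neurons of the forelimb, had levels of 0.24, 0.35 and 0.35 on the control arrays, -1.48, -1.26 and -1.02 with TNFα, and -1.06, -0.82 and -0.89 with TGFß1. Every array of both treated groups lay below every control array. The log2(FC) was -1.57 ± 0.18 (SE; 2.97-fold lower, limma q = 0.000129) with TNFα and -1.24 ± 0.18 (2.35-fold lower, q = 0.000447) with TGFß1.

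Hoxc10, a gene of the lumbar spine and hindlimb, stood at 0.36, 0.91 and 0.76 in controls, at -0.47, -0.45 and -0.47 with TNFα and at -0.35, -0.06 and -0.54 with TGFß1. The groups did not overlap with control, and the log2(FC) was -1.14 ± 0.17 (limma q = 0.000932) and -0.99 ± 0.17 (q = 0.00137). Hoxc9, which marks thoracic identity, was at 3.45, 3.66 and 3.52 in controls, at 2.58, 2.51 and 2.52 with TNFα and at 2.96, 2.96 and 2.77 with TGFß1. It was lower by all arrays of both groups, with a log2(FC) of -1.01 ± 0.11 (limma q = 0.000116) and -0.65 ± 0.11 (q = 0.00151).

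The more anterior genes Hoxc4 and Hoxc6 fell with both cytokines too. Hoxc6, a gene of the cervical to thoracic transition, was at 3.01, 3.55 and 3.27 in controls, at 2.28, 2.50 and 2.30 with TNFα and at 2.25, 2.54 and 2.35 with TGFß1. Hoxc4, the most anterior HoxC gene, was at 0.22, 0.78 and 0.31 in controls, at -0.38, -0.37 and -0.72 with TNFα and at -0.15, -0.38 and -0.40 with TGFß1. Neither gene had a treated array at the level of a control array. Hoxc6 fell by 0.92 ± 0.19 on the log2 scale with TNFα (limma q = 0.00647) and by 0.90 ± 0.19 with TGFß1 (q = 0.00436), and Hoxc4 by 0.92 ± 0.18 (q = 0.00476) and by 0.74 ± 0.18 (q = 0.0094). Without control 6, the control array highest in Hoxc4, the TGFß1 change of Hoxc4 was -0.57 and no longer reached the fold-change required.

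The 2 most posterior HoxC genes were called with TGFß1 alone. Hoxc13, a regulator of hair and nail keratins, was at 1.18, 1.51 and 1.34 in controls, at 0.85, 0.88 and 0.95 with TNFα, and at 0.26, 0.14 and 0.29 with TGFß1. Its 3 groups were apart from each other. Its log2(FC) was -1.11 ± 0.12 (limma q = 5.96e-05) with TGFß1 and -0.45 ± 0.12 (q = 0.0269, under the fold-change required) with TNFα, and the difference between the cytokines was itself called, TNFα-treated MEFs being higher by 0.66 ± 0.12 (q = 0.00232). Hoxc12 was at -1.46, -1.84 and -1.93 in controls, at -2.56, -2.56 and -2.41 with TNFα and at -3.26, -2.94 and -3.59 with TGFß1. It fell by 1.52 ± 0.37 on the log2 scale with TGFß1 (limma q = 0.0104) and differed by -0.76 ± 0.37 with TNFα (q = 0.209). Hoxc12 was among the Hox genes that differed most between slides, with slide 2 at -0.65 relative to slide 1. The TGFß1 change was -1.24 within slide 1, which holds 1 TGFß1 array, and -1.58 within slide 2, which holds 1 control array.

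Hoxc5 and Hoxc11, which lie between genes that fell with TGFß1, were not called with either cytokine. Hoxc5 was between -3.11 and -2.35 in controls, between -3.35 and -2.64 with TNFα and between -2.74 and -2.36 with TGFß1. Hoxc11 was between -0.16 and 0.11 in controls, between -0.13 and 0.28 with TNFα and between -0.05 and 0.12 with TGFß1. For both genes the groups overlapped, with a log2(FC) of -0.22 ± 0.22 and 0.14 ± 0.22 for Hoxc5 and of 0.16 ± 0.13 and 0.08 ± 0.13 for Hoxc11 (TNFα and TGFß1 in that order). Over all 9 HoxC genes the median log2(FC) was -0.92 with TNFα and -0.90 with TGFß1.

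**Figure D3:**
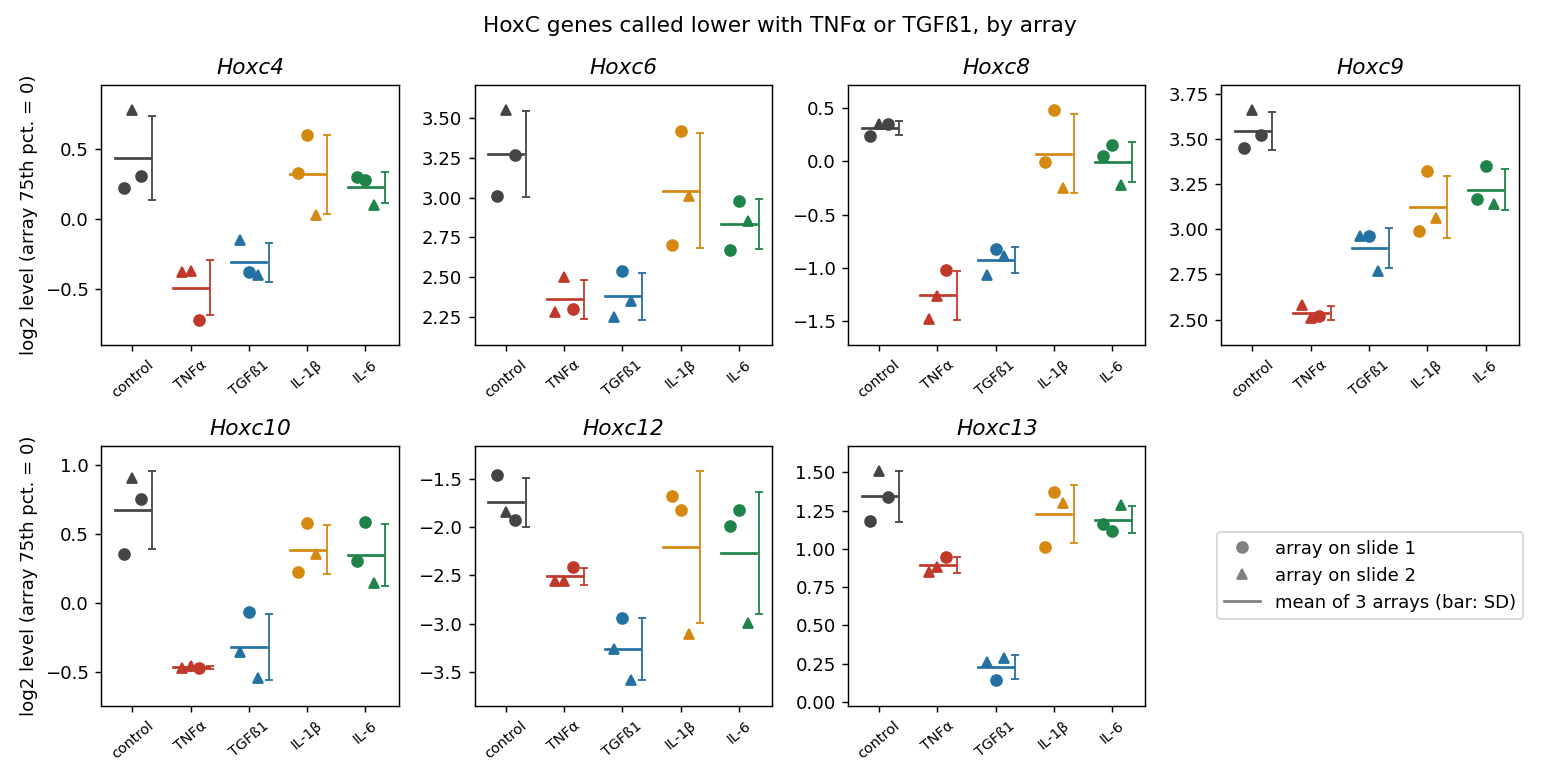
Log2 levels of the 7 HoxC genes called lower with TNFα or TGFß1, on each of the 15 arrays (circles: slide 1, triangles: slide 2), with the mean of 3 arrays and the SD per group; each panel has its own axis. TGFß1 arrays lay below all control arrays in the 7 panels, and for Hoxc12 the IL-1β and IL-6 arrays of slide 2 (-3.11 and -2.99) lay far below those of slide 1.

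The HoxC calls were also made with slide as a term, where 5 genes were called lower with TNFα and 7 with TGFß1. Within each slide the 5 genes called with both cytokines were lower than control. These changes rest on 1 control array on slide 2 and on 1 array of each of these cytokines on slide 1. The control array of slide 2, control 6, was the highest control for Hoxc4, Hoxc6, Hoxc9 and Hoxc10. For Hoxc8 the change was -1.32 within slide 1 and -1.72 within slide 2 with TNFα, and -1.11 and -1.32 with TGFß1. For Hoxc6 it was -0.84 and -1.16 with TNFα, and -0.60 and -1.25 with TGFß1.

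Genes of HoxA and HoxB rose with TGFß1. Hoxa4, an anterior gene of the neck vertebrae, was at -3.23, -3.17 and -3.15 in controls and at -1.93, -1.81 and -2.20 with TGFß1, while TNFα arrays stood at -2.94, -3.20 and -2.92. The TGFß1 arrays were above every other array of the series, and the log2(FC) was 1.20 ± 0.22 (2.31-fold higher, limma q = 0.00207) with TGFß1 and 0.16 ± 0.22 (q = 0.685) with TNFα. Hoxb4, a paralog of Hoxa4 that also supports the growth of blood stem cells, was at -0.03, 0.02 and 0.06 in controls, at 0.79, 1.12 and 0.83 with TGFß1 and at 0.25, 0.36 and 0.22 with TNFα. Both treated groups lay above control without overlap, and the TGFß1 change of 0.89 ± 0.11 (limma q = 0.000132) was called while the TNFα change of 0.26 ± 0.11 (q = 0.149) was not.

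Hoxb2, an anterior gene of the hindbrain, was at -0.08, -0.01 and -0.17 in controls, at 0.40, 0.68 and 0.69 with TGFß1 and at -0.56, -0.78 and -0.64 with TNFα. The cytokine groups lay on opposite sides of control. The log2(FC) was 0.68 ± 0.11 (limma q = 0.000791) with TGFß1 and -0.57 ± 0.11 (q = 0.00412) with TNFα, which was 1.49-fold and so just under the fold-change required. Hoxb7, a trunk gene studied for its part in the growth of mesenchymal and tumour cells, was at 2.98, 2.71 and 3.06 in controls and at 3.87, 3.68 and 3.83 with TGFß1, and it rose by 0.88 ± 0.15 (q = 0.00132). TNFα arrays stood at 3.55, 3.26 and 3.48, a change of 0.51 ± 0.15 (limma q = 0.0414, 1.43-fold). Hoxa11, a gene of the forearm and the uterus, was at 0.96, 1.01 and 1.24 in controls and at 1.72, 1.44 and 1.94 with TGFß1. It rose by 0.63 ± 0.17 (limma q = 0.017), a 1.55-fold change, and with slide as a term the change was 0.57 and not called. The call was also lost without control 1 (0.57, q = 0.053), control 6 (0.60, q = 0.0506), TGFß1 2 (0.62, q = 0.0539) or TGFß1 12 (0.51, q = 0.0754), all by limma.

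Hoxa7 was the 1 gene of the 32 tested that rose with TNFα by both criteria, while Hoxb7 passed the q-value alone. Hoxa7, a gene of the thoracic spine, was at 2.18, 2.04 and 2.34 in controls, at 3.38, 3.08 and 3.05 with TNFα and at 3.07, 2.29 and 2.88 with TGFß1. TNFα arrays were all above control, while TGFß1 7 lay inside the control range. The log2(FC) was 0.98 ± 0.25 (limma q = 0.0223) with TNFα and 0.56 ± 0.25 (q = 0.13) with TGFß1. The TNFα call was lost under median centring (0.89, limma q = 0.058) and with no filter on dim probes (q = 0.0529). It was also lost without control 1 (0.98, q = 0.0566), control 6 (0.91, q = 0.069) or TNFα 4 (0.88, q = 0.0954), by limma. Hoxb6, a trunk and limb gene, was the only gene outside HoxC called lower with TNFα by its brightest probe, at 1.26, 1.30 and 1.53 in controls and at 0.66, 0.43 and 1.06 with TNFα. It fell by 0.64 ± 0.18 on the log2 scale (limma q = 0.0295), and with slide as a term by 0.55, which was under the fold-change required. Without control 6 (-0.68, q = 0.0556), control 11 (-0.56, q = 0.106), TNFα 4 (-0.62, q = 0.103) or TNFα 9 (-0.50, q = 0.116) it was not called by limma. Nor was it called in a fit of the 9 control, TNFα and TGFß1 arrays alone (-0.64, limma q = 0.0579).

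**Figure D4:**
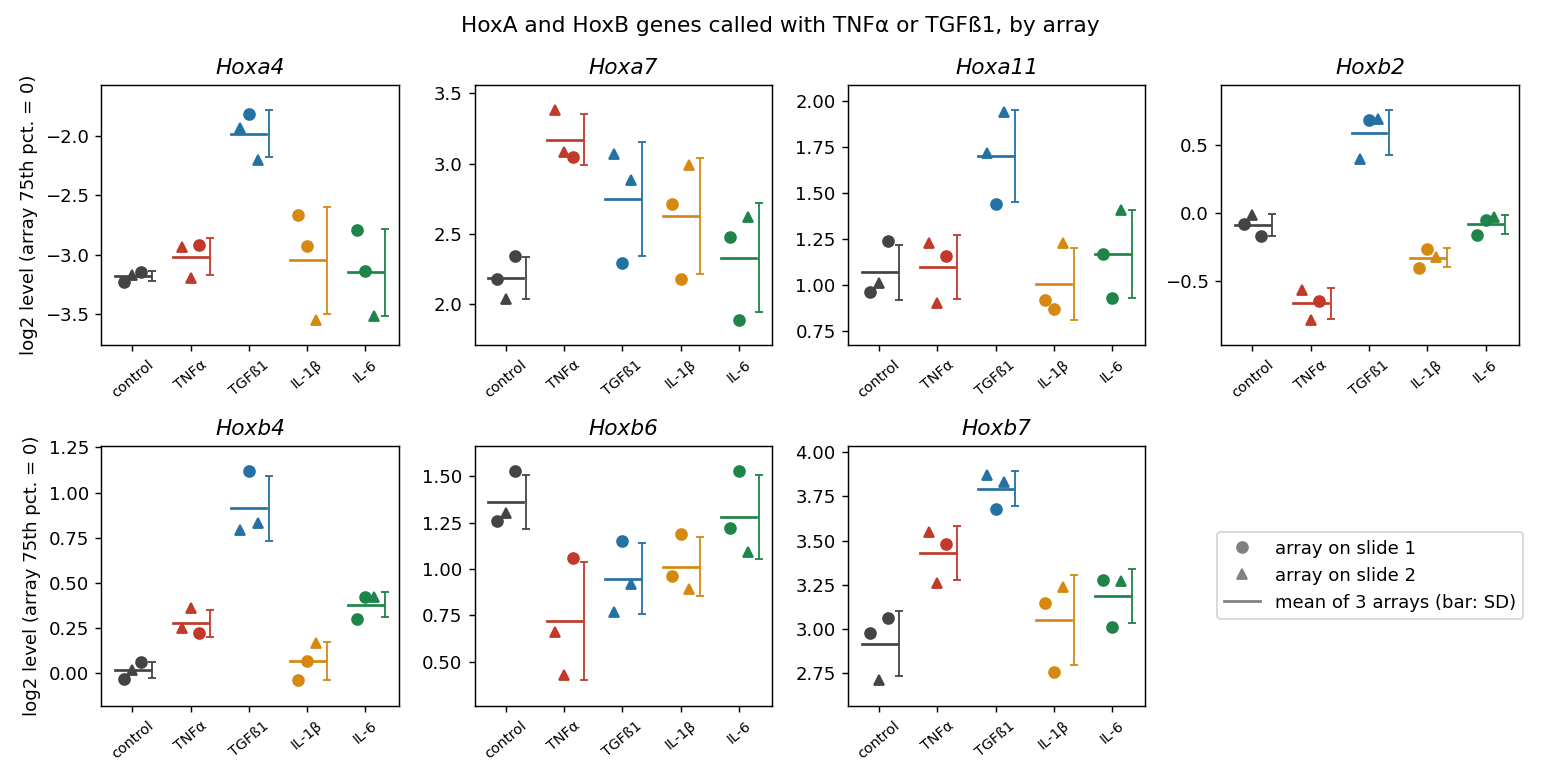
Log2 levels of the 7 HoxA and HoxB genes called with TNFα or TGFß1, on each of the 15 arrays (circles: slide 1, triangles: slide 2), with the mean of 3 arrays and the SD per group; each panel has its own axis. For Hoxa4, Hoxb2 and Hoxb4 the TGFß1 arrays stood above all other arrays, and for Hoxa7 the 3 TNFα arrays (3.05 to 3.38) stood above the controls (2.04 to 2.34).

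The other HoxA and HoxB genes stayed under the criteria. Hoxa10, a gene of the uterus and hindlimb, was measured by 2 probes with different calls. Its brighter probe was at 1.15, 1.16 and 0.99 in controls, at 0.73, 0.41 and 0.53 with TNFα and at 1.46, 1.34 and 1.49 with TGFß1, with a TNFα change of -0.54 ± 0.11 (limma q = 0.00635, 1.45-fold). Its other probe gave -0.63 ± 0.19 with TNFα (q = 0.048), which was called, though not with slide as a term (-0.55, where the brighter probe gave -0.58), and 0.04 ± 0.19 with TGFß1, where the brighter probe gave 0.33 ± 0.11 (q = 0.0414). Hoxa3, a gene of the thymus and parathyroid, differed by -0.50 ± 0.10 (limma q = 0.00625) with TNFα without reaching 1.5-fold, and its other probe, detected on 5 of the 15 arrays, was not tested. For the pairs of probes of Hoxa9, Hoxb3, Hoxb8, Hoxb9 and Hoxd8 neither probe was called against control in the fit of all arrays without covariates. Hoxb3 was the Hox gene that differed most between slides, by 1.18 on the log2 scale, and its change with TNFα was -0.28 ± 0.56 without and -0.67 with slide as a term. With slide and the run of label numbers as terms its brighter probe was called lower under TNFα (-0.70, limma q = 0.0045) as well as under TGFß1 (-0.64, limma q = 0.00494), whereas its other probe was called under neither (-0.14 and -0.03).

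IL-1β and IL-6 changed no Hox gene by the criteria. In these comparisons 0.252% and 0.0648% of all probes were called (74 and 19 probes), and 0 of 32 Hox genes, with limma and under every alternative run for the counts. The numbers of probes rested on the fit, since with slide and the run of label numbers as terms 320 and 228 were called. For IL-1β the number fell to 36 without control 1, 41 without control 11, 40 without IL-1β 15 and 47 without IL-1β 5 or IL-1β 10. For IL-6 it fell to 5 without control 1 or control 6 and to 6 without IL-6 8. At an unadjusted p below 0.05 there were 2 Hox genes with IL-1β (Hoxb2 and Hoxc9) and 3 with IL-6 (Hoxb4, Hoxc6 and Hoxc9), among 1088 and 955 of all 29334 probes. The 32 genes had a median log2(FC) of -0.02 with IL-1β and 0 with IL-6. In HoxC, 8 of 9 genes were below control in each group, with a median of -0.23 (from -0.46 to 0.10) with IL-1β and -0.32 (from -0.52 to 0.04) with IL-6, and medians of 0 over all probes. Hoxc9 stood at 2.99, 3.32 and 3.06 with IL-1β and at 3.17, 3.35 and 3.14 with IL-6, in both groups below every control array. Its log2(FC) was -0.42 ± 0.11 (limma q = 0.344) and -0.32 ± 0.11 (q = 1). Hoxb4 stood at 0.30, 0.42 and 0.42 with IL-6, above the controls, with a log2(FC) of 0.36 ± 0.11 (q = 0.726).

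The cytokines were also set against each other. Between TNFα and TGFß1, 7 of the 32 Hox genes were called (11.8% of all probes), 6 of them lower with TNFα. The lower genes, all from HoxA and HoxB, included Hoxb2 (-1.25 ± 0.11, limma q = 7.06e-06), Hoxa4 (-1.04 ± 0.22), Hoxa10 (-0.87 ± 0.11), Hoxb4 (-0.64 ± 0.11) and Hoxa11 (-0.60 ± 0.17), and the higher gene was Hoxc13. All 7 were called with slide as a term as well. Hoxa11 was not called without TNFα 9 (-0.50), TNFα 14 (-0.63), TGFß1 2 (-0.59) or TGFß1 12 (-0.48), nor Hoxb4 without TGFß1 7 (-0.53), and under median centring Hoxc13 and Hoxa11 were not called. The 5 HoxC genes that fell with both cytokines were not called between them.

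A pair of comparisons that share no array was made to see the HoxC genes apart from the control arrays. The first was against TNFα, and the second was chosen after the data had been seen. The exposure of the IL-1β and IL-6 arrays is not settled and may differ from that of the TNFα and TGFß1 arrays. In both comparisons a difference between cytokines therefore cannot be told apart from a difference in exposure time. IL-1β-treated MEFs were higher than TNFα-treated MEFs in Hoxc8 (1.33 ± 0.18, limma q = 0.00107), Hoxc10 (0.86 ± 0.17, q = 0.0116) and Hoxc4 (0.81 ± 0.18, q = 0.0202), and no Hox gene was called lower (4.83% of all probes were called). Without IL-1β 10, 1 of these 3 genes was called, with Hoxc10 at 0.77 (q = 0.0637) and Hoxc4 at 0.67 (q = 0.101) by limma. Hoxc4 was also lost without IL-1β 5 (0.80), TNFα 4 (0.86) or TNFα 14 (0.69), and in a fit of only the arrays compared (0.81, limma q = 0.0936). TGFß1-treated MEFs were lower than IL-6-treated MEFs in Hoxc13 (-0.96 ± 0.12, limma q = 0.000164), Hoxc8 (-0.91 ± 0.18, q = 0.00343) and Hoxc10 (-0.67 ± 0.17, q = 0.0143), and higher in Hoxa4 (1.17 ± 0.22), Hoxb2 (0.67 ± 0.11) and Hoxb7 (0.61 ± 0.15), where 16.4% of all probes were called. Hoxc8 and Hoxc10 were called in both of these comparisons. Hoxc10 was lost from the second without TGFß1 12 (-0.56) or IL-6 8 (-0.55), and Hoxb7 without TGFß1 2 (0.57) or IL-6 8 (0.52). A test of any difference among the 5 groups called 14 of the 32 Hox genes at a q-value below 0.05, where 25.8% of all probes passed. These included Hoxa3, Hoxa4, Hoxa10, Hoxa11, Hoxb2, Hoxb4, Hoxb7, Hoxc4, Hoxc6, Hoxc8, Hoxc9, Hoxc10 and Hoxc13.

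The partners and regulators of Hox genes were read from lists that hold no Hox gene, and their counts stand beside the shares of all probes given above. Of 7 cofactors tested, 2 fell with TNFα, Meis1 (-1.05 ± 0.10, limma q = 3.82e-05) and Meis2 (-0.89 ± 0.13, q = 0.001), and 2 with TGFß1, Meis3 (-0.78 ± 0.18, q = 0.0069) and Meis2 (-0.74 ± 0.13, q = 0.00197), all of them partners that bind DNA with Hox proteins. The median log2(FC) of the cofactors was -0.17 with TNFα and -0.14 with TGFß1. Of 18 Polycomb genes tested none was called with TNFα (median -0.03). With TGFß1, Phf19 (-1.33 ± 0.22, limma q = 0.000914) and Cbx7 (-0.89 ± 0.13, q = 0.000388) fell and Phc2 (0.93 ± 0.14, q = 0.000498) rose. Of 13 Trithorax genes and demethylases none was called with either cytokine (median 0.06 and 0.25).

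Among 7 tested inducers of Hox expression, the retinoic acid receptor Rara and its partner Rxra fell with TNFα (-1.58 ± 0.15, limma q = 3.59e-05, and -0.81 ± 0.12, q = 0.00108). With TGFß1 both fell too (-0.87 ± 0.15 and -0.70 ± 0.12), together with Rarb (-1.15 ± 0.17, q = 0.000437) and Rarg (-0.62 ± 0.17, q = 0.0185), while Gdf11, a TGFß family ligand that sets posterior identity, rose (1.34 ± 0.21, q = 0.000809), as did Egr2 (1.18 ± 0.36, q = 0.0321), which acts on Hox genes of the hindbrain. Rarg was called without but not with slide as a term. Of 5 non-coding transcripts of the clusters tested, Hoxb5os, which is read from the strand opposite to HoxB genes, fell with TNFα (-2.15 ± 0.26, q = 0.000198) and with TGFß1 (-1.71 ± 0.26, q = 0.000625), and the others were not called. Of 17 other positional transcription factors of mesenchyme tested, 2 rose and 6 fell with TNFα (median -0.42) and 4 rose and 6 fell with TGFß1 (median -0.38). Irx5 (-1.74 ± 0.15) and Shox2 (-1.46 ± 0.20) fell the most with TNFα, and with TGFß1 Prrx2 fell the most (-2.70 ± 0.27), while Irx3 (1.12 ± 0.14) was among those that rose. None of these regulators, partners and positional factors was called with IL-1β or IL-6.

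Markers of the cell types moved with the cytokines too. Of 10 fibroblast markers 4 were called lower with TNFα (Col1a1, Col1a2, Col3a1 and Thy1, the last not with slide as a term), and with TGFß1 Pdgfra was lower and Pdgfrb and Fn1 were higher. The summed signal of the 10 markers, in units of the 75th percentile of the array, ran from 744 to 901 in controls, from 527 to 607 with TNFα and from 851 to 1080 with TGFß1. Of 6 epithelial markers none was detected on all arrays, Cdh1 and Krt5 were detected on none and Epcam on 1. The keratin Krt8 was detected on 4 arrays and passed the filter through the TGFß1 group alone, with every control array not well above background, so no fold is given for it. The summed epithelial signal was 0.0803 to 0.16 in controls, 0.0576 to 0.0749 with TNFα and 0.163 to 0.422 with TGFß1. With IL-1β it was 0.0574 to 0.152 and with IL-6 0.0576 to 0.137. The sum holds Krt8 and probes that were not well above background, so the groups are not set against each other by it. The part of these changes in the Hox results was not tested. In bulk RNA, fewer cells with a transcript and less transcript per cell cannot be told apart.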

How the data were processed

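Total RNA of 15 cultures was measured on one-color arrays in 5 groups of 3, grouped by the labels. The authors labelled RNA with Cyanine 3 and extracted spots with Agilent Feature Extraction 10.7.3.1 (per the labels' processing notes). The deposited values are processed signal intensities, background-subtracted and not normalized between arrays. The deposited table of the series holds the same intensities. Non-uniform and outlier spots were dropped, the log2 intensities of a probe averaged and the 75th percentile of each array (508 to 683) subtracted. Probes well above background (at least 0.5 of spots) on all arrays of a group were tested, 29334 of 56605, with limma 3.58.1 in R 4.3.3: all 15 arrays entered one fit, with two-sided moderated tests and q-values by Benjamini and Hochberg. Names came from RefSeq identifiers (GRCm38.p6, 33767 probes matched). Gene and probe positions are left out, since the array design rests on an earlier genome build, and only the promoter windows carry RefSeq's own coordinates. The brightest probe over all arrays stands for a gene. The sequences of the array probes were not used here, so matches to paralogs were not checked.

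Every Hox gene was accounted for, with values by array for those called against control, and up to 4 called genes of other lists by size of change. The members and lists were chosen with earlier results of these data known. The script was tested on simulated data. Alternatives covered filters, scalings, background correction, slide, runs of label numbers, arrays in the fit, probes per gene, the fold criterion and each array left out. The number of arrays limits the precision. Some items are not reported here by name.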

Additional observations from a re-analysis of the deposited data

How the results depend on the processing

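Among the 7 comparisons planned, the counts of Hox genes called stayed within 1.5 times the value given under every alternative except those named here. The added comparison of TGFß1 with IL-6 is included in the ranges. With the q-value alone and no fold criterion, 12 Hox genes were called with TNFα (10 lower), 6 between IL-1β and TNFα and 10 between TGFß1 and IL-6. With slide and the run of label numbers (3 runs of consecutive numbers, in which each group has 1 array) as terms, 5 were called between IL-1β and TNFα. Leaving out each array in turn gave 5 to 8 calls with TNFα and 10 to 13 with TGFß1 (lowest without control 6 in both), 0 to 0 with IL-1β and with IL-6, 6 to 7 between TNFα and TGFß1, 1 to 4 between IL-1β and TNFα (lowest without IL-1β 10), 4 to 9 between TGFß1 and IL-6 (lowest without IL-6 8) and 12 to 16 for any difference. An arm left with 2 arrays was assumed to vary like the other groups.

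Of 859 refitted changes for the 35 called genes and comparisons, 0 changed sign and 50 fell under the criteria. Many of these refits could not change the sign. Other filters, fits of fewer groups and leaving out an array of a group not compared keep the fold-change and alter only the q-value. The deposited values of the series equal those of the scanner, so that refit could lose no call. Hoxb6 with TNFα (11 of 25 alternatives), Hoxa11 with TGFß1 (8 of 25) and Hoxa7 with TNFα (5 of 25) were lost most often among calls against control, while Hoxc8, Hoxc9, Hoxc10 and Hoxc6 were lost under 0 with either cytokine. Median centring moved the median of all probes to -0.14 between TNFα and TGFß1. The counts of genes detected were the same under the alternative definitions within 1.5 times. The main fit holds no term for the run, and whether a run of label numbers is 1 of the independent experiments is not stated. The fit with slide and run called 7 Hox genes with TNFα and 13 with TGFß1. Over all probes it called 4513 with TNFα in place of 2986, while the main fit without TNFα 4 called 1896.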
